A study of Bos taurus with 12 samples.

Results

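The genes of the 4 caseins (CSN1S1, CSN1S2, CSN2 and CSN3), of the whey proteins α-lactalbumin (LALBA) and β-lactoglobulin (PAEP) and of the milk glycoprotein GLYCAM1 were followed in mammary epithelium and intralobular stroma before calving. Every probe set of the Bovine GeneChip whose single gene symbol is one of these 7, among 9156 genes so named, was taken, which gave 11 of 24128 probe sets. CSN2 has 3 of them, GLYCAM1 has 3, and each other gene has 1. Of the 11, 9 are ordinary probe sets, all among the 10000 with the highest mean over the arrays, which were tested, and 2 are control probe sets of GLYCAM1, whose values are described without a test. Tissue came from 6 dry, pregnant Holstein cows biopsied 3 weeks before expected calving. The explants of all 6 spent 2 h in culture, where the medium held insulin, hydrocortisone and 50 µM BrdU, a thymidine analog that marks DNA synthesis. Laser capture from frozen sections then gave 1 epithelial and 1 intralobular stromal sample per cow, and each was amplified and read on an array of its own, 6 per tissue. There was no untreated or lactating group, so all values describe cultured tissue of dry cows. Intralobular stroma is a mixed tissue, with vessel, nerve and immune cells beside its fibroblasts. The labels give a lactation number of 3 for cow 1, 2 for cow 2 and 1 for the other 4 cows, which the methods call multiparous, and they give no age. Both captures of a cow came from the same biopsy, so differences between cows and differences between biopsies cannot be told apart. In captures, fewer cells of a type and less RNA per cell cannot be told apart either.

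Caseins assemble into micelles that carry calcium phosphate in milk. CSN1S1, CSN1S2 and CSN2 are the calcium-sensitive caseins of the micelle core, and CSN3 (κ-casein) covers its surface and keeps it in solution. LALBA is the subunit that turns a Golgi galactosyltransferase, B4GALT1, into lactose synthase, PAEP is the main whey protein of ruminants, and GLYCAM1 (lactophorin) is a phosphorylated glycoprotein of the whey. These genes are switched on in secretory epithelium around the onset of lactation, when prolactin acts through its receptor and STAT5, together with glucocorticoid, insulin and contact with the basement membrane. The reference gene table places the casein genes in one cluster, in the order CSN1S1, CSN2, CSN1S2 and CSN3, and the other members elsewhere.

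Markers of luminal epithelium and of fibroblasts separated the captures as labelled, and those of myoepithelium did not. Of 12 tested markers of luminal epithelium, 11 were expressed at a greater level in epithelium and 0 in stroma, and all 10 of 10 fibroblast markers were greater in stroma. KRT8, a keratin of simple epithelium, was 8.05-fold greater in epithelium (limma, adjusted p = 0.00151), EPCAM, an epithelial adhesion molecule, 16.5-fold (adjusted p = 0.00175), VIM, the mesenchymal intermediate filament, 11.4-fold greater in stroma (adjusted p = 0.00062) and 103-fold for LUM, which binds collagen fibrils (adjusted p = 0.000162). The values are log2 RMA values, and each array's median over all probe sets lay between 2.95 and 3.08. A value below that median is near background, and a fold against it is not exact. The polyadenylated control RNA added to the samples averaged 9.11 to 10.99 in the stroma of cows 4, 5 and 6 and 4.01 to 7.21 in the other stroma arrays. Endothelial markers averaged 2.17 to 2.60 in epithelium and 4.94 to 7.59 in stroma. Of 7 tested myoepithelial markers, 0 were greater in epithelium and 1 in stroma, and all 7 had the higher mean in stroma. Among them, the keratin KRT5 averaged 8.72 in epithelium and 9.02 in stroma.

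All 7 genes had a higher mean in epithelium than in stroma, and for 5 of them the epithelial capture was the higher one in all 6 cows. Across all tested probe sets, 9.34% were higher in the epithelium of all 6 cows. The ranges of the tissues overlapped for every milk protein probe set, and 2.8% of all tested probe sets had an epithelial range wholly above the stromal one. Of the 7 genes, each read at its brightest probe set, 1 (GLYCAM1) was expressed at a greater level in epithelium and 0 in stroma at an adjusted p under 0.05. In the same test, 4.77% of all tested probe sets were greater in epithelium (477 probe sets) and 4.54% in stroma (454), 9.31% in all. After centring of the arrays the split was 360 and 515. The median stroma minus epithelium difference was -1.60 on the log2 scale over the 7 genes and -0.18 over all tested probe sets. The test was limma with tissue as the term tested and cow as a fixed block, with p values adjusted over all 10000 probe sets. Without the cow block, or with arrays centred on their median, 0 of the 7 passed.

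**Figure D1:**
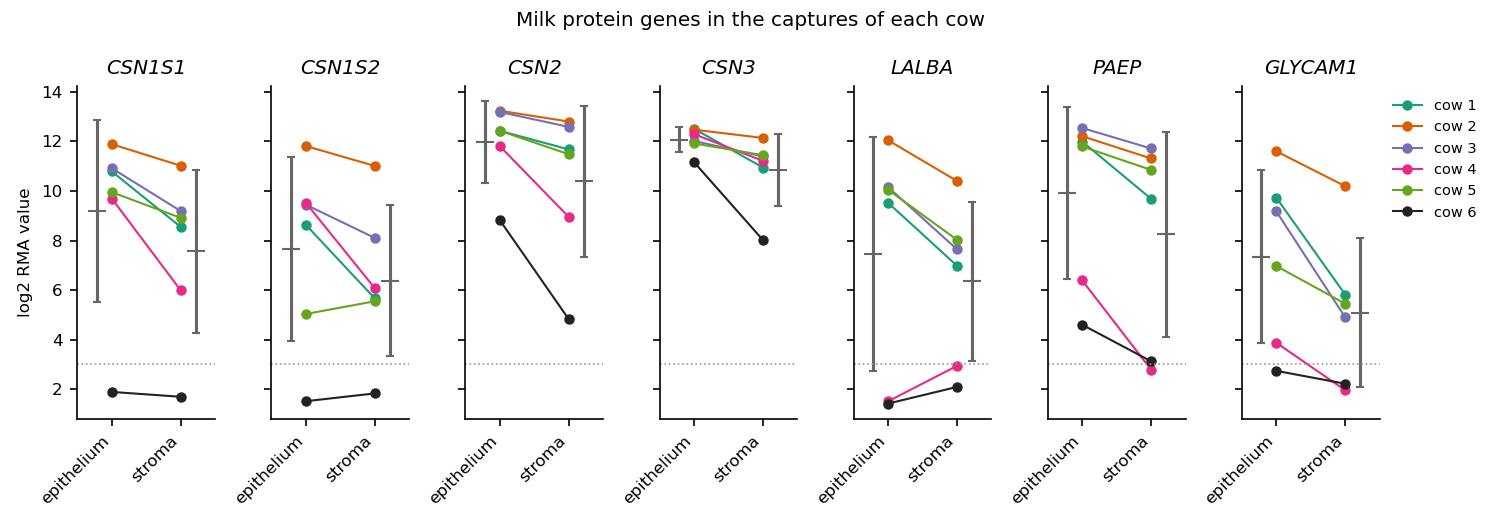
Log2 RMA value of the brightest probe set of each gene in the epithelial and stromal capture of each cow. Each line joins the captures of 1 cow, grey marks are the mean ± SD of 6 captures, and the dotted line is the median of the 12 array medians. In most cows the line falls from epithelium to stroma, but the lines of different cows lie much further apart than their ends, except for CSN3.

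Of the calcium-sensitive caseins, CSN1S1 (αs1-casein) ran in epithelium from 1.90 in cow 6 to 11.88 in cow 2, with a median of 10.37. In stroma it ran from 1.71 to 11.01 with a median of 8.73, and the same cows held the lowest and the highest value. Epithelium exceeded stroma by 0.20 to 3.70 in all 6 cows, a mean fold of 3.09 (log2 standard error 0.49, 95% interval 1.43 to 6.65, adjusted p = 0.0758). The difference did not pass the test, and in cow 6 both captures lay below the array medians.

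CSN1S2 (αs2-casein) spread as widely. Its epithelial values ran from 1.53 in cow 6 through a median of 9.04 to 11.81 in cow 2, and its stromal values from 1.84 through 5.87 to 11.01. Epithelium was higher in 4 of 6 cows, by 0.80 to 3.44, and stroma in cows 5 and 6, where the epithelium minus stroma differences were -0.51 and -0.31. The mean fold of 2.44 (log2 standard error 0.59, 95% interval 0.964 to 6.17, adjusted p = 0.230) did not pass.

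CSN2 (β-casein) is measured by 3 probe sets, called 2.A1, 1.S1 and 2.S1_x here after the ends of their names, and they did not give the same call. The brightest, 2.A1, ran from 8.81 through a median of 12.42 to 13.23 in epithelium and from 4.82 through 11.57 to 12.79 in stroma. It was 3.02-fold greater in epithelium (log2 standard error 0.55, 95% interval 1.28 to 7.13, adjusted p = 0.112) and higher there in all 6 cows, but did not pass. Probe set 1.S1 was 4.10-fold greater (log2 standard error 0.44, 95% interval 2.04 to 8.23, adjusted p = 0.0223), passed and was also higher in all 6 cows. Probe set 2.S1_x was 2.44-fold greater (adjusted p = 0.149) and higher in 5 of 6 cows, and its x suffix marks a set whose probes may also bind other transcripts. All 3 were lowest in cow 6, in both tissues. The call of probe set 1.S1 was lost without cow 1 (adjusted p = 0.0775), cow 4 (0.0712) or cow 6 (0.0643). The paper reported CSN2 as greater in epithelium on these arrays, where it counted genes at an unadjusted p and fitted no cow block. By qPCR it also reported a large CSN2 difference in that direction. The size of the qPCR difference was not compared with the array folds here.

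CSN3 (κ-casein) stood apart from the other caseins in its evenness. Its epithelial values lay between 11.16 and 12.50, with a median of 12.15 and an SD of 0.50 (n = 6), and its stromal values between 8.02 and 12.13 with a median of 11.30. Cow 6, which was near background for both αs-caseins, still had 11.16 for CSN3 in epithelium. Epithelium exceeded stroma in all 6 cows, by 0.33 to 3.14, a mean fold of 2.30 (log2 standard error 0.45, 95% interval 1.14 to 4.63, adjusted p = 0.141), which did not pass. No casein value came closer than 1.10 to the highest value of its array. That distance cannot show whether bright probe sets such as that of CSN3 were compressed, which was not tested.

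LALBA separated the cows into distant levels. In epithelium it was 9.52 to 12.04 in cows 1, 2, 3 and 5 and 1.43 and 1.52 in cows 6 and 4. In stroma the same 4 cows had 6.98 to 10.40 and cows 6 and 4 had 2.10 and 2.95. Where LALBA was well above background, epithelium exceeded stroma by 1.64 to 2.54. In cows 4 and 6 all 4 values lay below the array medians and the epithelium minus stroma differences were -1.43 and -0.67. Over all cows the fold was 2.14 (log2 standard error 0.61, 95% interval 0.822 to 5.59, adjusted p = 0.316) and did not pass.

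PAEP showed the same cows at the bottom. It was 11.79 to 12.53 in the epithelium of cows 1, 2, 3 and 5, 6.39 in cow 4 and 4.61 in cow 6, and its stromal values ran from 2.80 in cow 4 through a median of 10.26 to 11.71 in cow 3. Epithelium exceeded stroma in all 6 cows, by 0.82 to 3.60, a mean fold of 3.19 (log2 standard error 0.46, 95% interval 1.56 to 6.53, adjusted p = 0.0538). It missed the threshold in this fit and passed with an intensity trend and robust prior (adjusted p = 0.0249).

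GLYCAM1 was the gene that passed. Its ordinary probe set ran in epithelium from 2.75 in cow 6 through a median of 8.08 to 11.60 in cow 2, and in stroma from 1.97 in cow 4 through 5.18 to 10.19 in cow 2. Epithelium exceeded stroma by 0.52 to 4.27 in all 6 cows, a mean fold of 4.78 (log2 standard error 0.55, 95% interval 2.00 to 11.4, adjusted p = 0.0367). The call was lost without cow 1, 2, 3, 4 or 5 (adjusted p = 0.0559 to 0.110) and held without cow 6. The control probe set for the middle of the transcript followed the ordinary one, from 2.34 in cow 6 to 11.68 in cow 2 in epithelium. The control probe set for its 5′ end ran from 2.59 in cow 6 to 9.57 in cow 2 there, and epithelium was the higher capture in 4 of 6 cows, against 5 of 6 for the middle one. For GAPDH, the 3′ probe set exceeded the 5′ one by 0.93 to 4.75 on the log2 scale over the 12 arrays. The paper rated its RNA as suitable by a GAPDH 3′ to 5′ ratio and by RNA integrity numbers. These are other measures than the difference of RMA values here. The part of RNA degradation in these values was not tested.

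The differences of the milk protein genes were smaller than those of luminal markers in most cows. In cow 2, the median difference over the 7 genes was 0.87 and that over the 12 luminal markers 3.75. In cow 6 the medians were 0.52 and 3.52, but there 4 of the 7 genes lay below the array median in both tissues, GLYCAM1 with the median difference among them, and CSN2 and CSN3, far above it, differed by 3.99 and 3.14. The milk protein median was the smaller in 5 of 6 cows. Cow 4 was the exception, with 2.85 against 2.49. The stromal capture of cow 2 had the highest value of 6 of the 7 milk protein genes among the stromal captures, and its luminal markers averaged 3.66, the lowest of the 6. The stromal capture of cow 4, whose luminal markers averaged 5.36, the highest, was the lowest for PAEP and GLYCAM1, and that of cow 6 for the other 5. In epithelium, cow 2 was also the highest for 5 of the 7 genes, and cow 4 the second lowest for 5 of them, PAEP and GLYCAM1 included. Luminal markers in stroma averaged 3.66 to 5.36 and in epithelium 6.92 to 7.88. Single luminal markers had stromal means from 2.68 for CLDN3 to 6.60 for KRT19, with 2.98 for KRT8 and 5.66 for EPCAM, so some lay near the array medians and others well above them. The source of the milk protein RNA in the stromal captures was not tested.

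**Figure D2:**
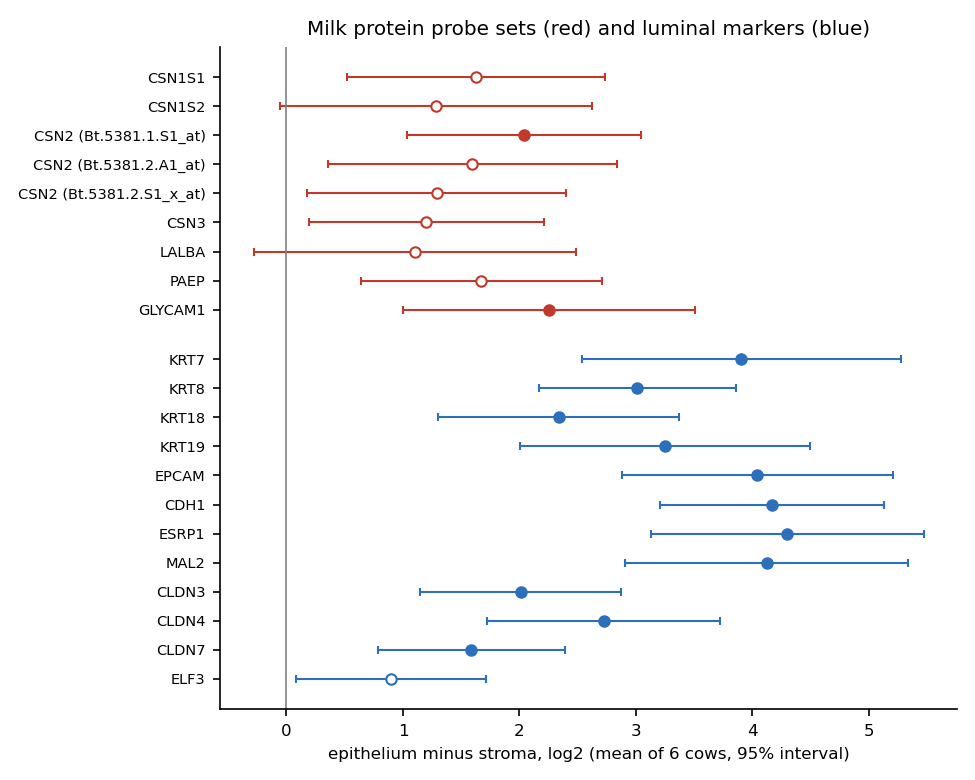
Epithelium minus stroma difference (log2, mean of 6 cows with the 95% interval of the limma fit) of the 9 tested milk protein probe sets in red and of 12 luminal epithelial markers in blue. Filled points passed an adjusted p under 0.05. Of the red points 2 are filled, and of the blue points 11.

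For all 7 genes, differences between cows took a larger share of the spread than tissue. Cow has 5 degrees of freedom and tissue 1, so each share is read against its median over all tested probe sets. Of the sum of squares over the 12 arrays, differences between cows made up 93.4% for LALBA, 92.6% for PAEP, 90.9% for CSN1S1, 90.3% for CSN1S2, 82.7% for GLYCAM1, 80.7% for the brightest probe set of CSN2 and 55.7% for CSN3. Over all tested probe sets the median share was 42.1%. Tissue made up 2.20% for LALBA and 27.1% for CSN3, at the ends of the 7 genes, against a median of 12.2%. The cow term of the fit passed an adjusted p under 0.05 for 4 of the 9 tested milk protein probe sets, those of PAEP (adjusted p = 0.0222), CSN1S1 (0.0373), LALBA (0.0411) and probe set 1.S1 of CSN2 (0.0373). Only 9 of all 10000 probe sets passed this test, a share of 0.09%. The other 5 were probe sets of BOLA, BOLA-DQB1 and BOLA-N, genes of the bovine histocompatibility complex, of SYT4, a synaptotagmin, and 1 without a symbol. GLYCAM1 (0.0896), CSN1S2 (0.0899), the CSN2 probe sets 2.S1_x (0.203) and 2.A1 (0.367), the latter the brightest of that gene, and CSN3 (0.679) did not pass. This test was chosen after the values were seen, and it was sensitive to single cows: without 1 cow, 0 to 2 of the 9 probe sets passed, with 0 without cow 1, 2, 3 or 6.

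In epithelium, LALBA had the largest SD over cows of all 10000 tested probe sets, 4.71 (n = 6). CSN1S2 (3.72) was 3rd, CSN1S1 (3.65) 4th, PAEP (3.48) 6th and GLYCAM1 (3.47) 7th. The brightest probe set of CSN2 (1.64) was 567th, but its probe sets 1.S1 (2.79) and 2.S1_x (2.02) were 19th and 173rd. CSN3 (0.50) was 7741st, below the median SD of 0.79. In stroma, PAEP had the largest SD of all tested probe sets, 4.15, and the SDs of the other genes ran from 1.44 for CSN3 to 3.29 for CSN1S1, all above the median of 1.02 over all tested probe sets.

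**Figure D3:**
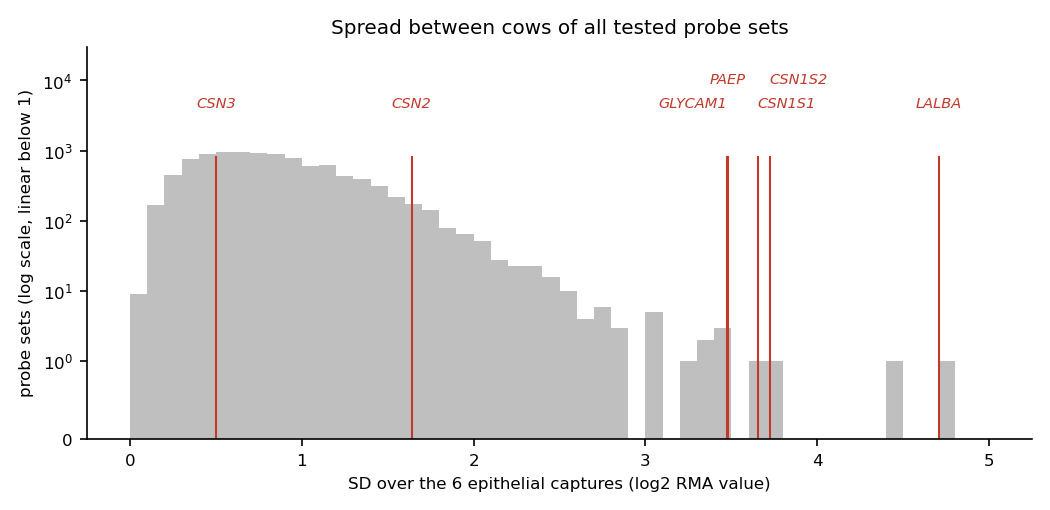
SD of each of the 10000 tested probe sets over the 6 epithelial captures, as a histogram with a log count axis, with the brightest probe set of each milk protein gene as a red line. LALBA, CSN1S2, CSN1S1, PAEP and GLYCAM1 lie in the far right tail, CSN2 inside it, and CSN3 lies below the median SD of 0.79. The other CSN2 probe sets, which had larger SDs, are not marked.

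The cows fell in a similar but not identical order for the different genes. Cow 6 was lowest for all 7 genes in epithelium, and cow 2 was highest for 5 of 7. Cow 6 had 4 of 7 genes below the array median in epithelium, cow 4 had 1, and the others 0. In the epithelium of cow 4 the caseins, at their brightest probe sets, lay nearer their medians than LALBA, PAEP and GLYCAM1 did. Its epithelial values were 9.69 for CSN1S1, 9.52 for CSN1S2, 11.80 for CSN2 and 12.29 for CSN3, where the medians of the 6 cows were 10.37, 9.04, 12.42 and 12.15. CSN1S1 and CSN2 were still second lowest of the 6 cows there. The other CSN2 probe sets of cow 4 were second lowest as well. They lay at 9.76 for 1.S1 and 10.58 for 2.S1_x, below medians of 11.18 and 11.255. LALBA at 1.52, PAEP at 6.39 and GLYCAM1 at 3.88 lay far below their medians of 9.78, 11.89 and 8.08. The stromal capture of cow 4 did not show this split for every casein, since CSN1S1 at 6.00 and CSN2 at 8.95 were also below their stromal medians of 8.73 and 11.57. The 4 cows with a lactation number of 1 spanned 1.43 to 10.15 for LALBA and 1.90 to 10.91 for CSN1S1 in epithelium. With 1 cow each at the other numbers, lactation number was not tested.

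**Figure D4:**
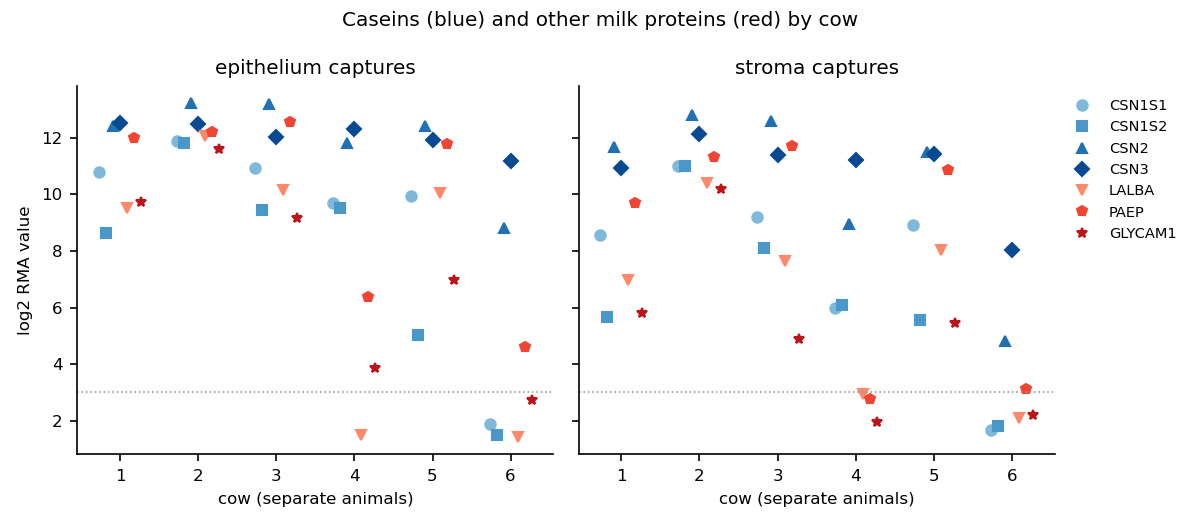
Log2 RMA value of the brightest probe set of each gene by cow, in epithelial captures (left) and stromal captures (right). Blue symbols are caseins, red symbols LALBA, PAEP and GLYCAM1, and the dotted line is the median of the array medians. In cow 4 each red symbol lies below the same symbol of cows 1, 2, 3 and 5, and in cow 6 CSN1S1, CSN1S2, LALBA and GLYCAM1 lie below the line in both tissues.

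Over the 6 epithelial captures, 12 of the 21 pairs among the 7 genes had a Pearson correlation that passed an adjusted p under 0.05 (exact permutation over pairings, two-sided, adjusted over 21 pairs), and 0 pairs passed by Spearman's rank correlation, where the lowest adjusted p was 0.05. Cow 6 lay apart from the others for most genes, and cow 4 as well for LALBA, PAEP and GLYCAM1, so the pairs are given by their counts. Without cow 6 alone, the median coefficient over the 21 pairs fell from 0.83 to 0.67 and the lowest from 0.51 to -0.11. No share of passing pairs among other genes was computed, so the count cannot show a trait particular to these 7. Each pair was computed again without the 2 cows farthest from the median of its first gene, which were cow 6 with cow 1, 2, 4 or 5. The coefficients then ran from -0.42 for CSN2 with CSN3 to 0.93 for CSN1S1 with GLYCAM1. The coefficient was 0.80 for CSN2 with LALBA and 0.84 for CSN2 with PAEP without cows 2 and 6. It was 0.26 for LALBA with PAEP without cows 4 and 6, the lowest cows for both genes. Each of these coefficients rests on 4 cows, and the cows left out differ between pairs. They therefore cannot show whether the relation differed between pairs.

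The arrays of cows 4 and 6, where several milk protein genes were lowest, had the following quality values. In epithelium their luminal markers averaged 7.88 and 7.74, the highest of the 6, their added control RNA 4.24 and 4.77 in a range of 2.96 to 6.68, and their mean correlations with the other epithelial arrays 0.88 and 0.87 in a range of 0.84 to 0.88. In stroma their mean correlations with the other stromal arrays were lower, 0.78 and 0.76, in a range of 0.72 in cow 5 to 0.82 in cow 2. The 3′ minus 5′ difference of GAPDH was 3.03 and 2.30 in epithelium, in a range of 0.93 to 3.59, and 3.74 and 4.75 in stroma, where cow 6 was the highest of all 12 arrays. The stromal arrays of both had high added control RNA, and the part of these measures in the milk protein values was not tested. In a fit without cows 5 and 6, which had the most control RNA in stroma and were dropped in an alternative added later, 1 of the 7 genes passed the test of tissue.

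Of the tested regulators of milk protein genes, the prolactin receptor and ELF5 were greater in epithelium, and 15 others did not pass. PRLR, the prolactin receptor, ran in epithelium around a mean of 8.02 ± 0.44 (SD, n = 6) and in stroma around 3.27 ± 1.19, a fold of 27.0 (log2 standard error 0.54, limma adjusted p = 0.000969). ELF5, a transcription factor of alveolar epithelium, had 10.72 ± 0.24 and 7.28 ± 1.82, a fold of 10.9 (log2 standard error 0.62, adjusted p = 0.00974). Both were higher in the epithelium of all 6 cows. In cow 6, where most milk protein genes were lowest, epithelial PRLR was 8.50, the highest of the 6, and ELF5 was 10.60. Of 32 regulators listed, 24 have a probe set with 1 symbol and 17 were tested, of which 2 passed as greater in epithelium and 0 as greater in stroma, with a median stroma minus epithelium difference of -0.10. GHR, the growth hormone receptor, which the paper reported as greater in epithelium, was outside the tested set. The brightest of its 11 probe sets was 2.83-fold higher in epithelium, in all 6 cows. In the limma fit on all probe sets other than controls its adjusted p was 0.0987. STAT5A has no probe set with 1 symbol and was not analysed here. STAT5B, the related factor, had 3.59 ± 1.16 in epithelium and 4.04 ± 2.00 in stroma (adjusted p = 0.752), NR3C1, the glucocorticoid receptor, 4.62 ± 1.21 and 4.54 ± 1.47 (adjusted p = 0.935), and CEBPB, a factor that binds casein promoters, 9.51 ± 0.66 and 8.92 ± 0.33 (adjusted p = 0.447). STAT5B lay below the array medians in both captures of cows 1 and 4, and its highest stromal value was 7.84 in cow 6. With values this near background, the missing call for STAT5B does not show equal levels. The signs of STAT5B and NR3C1 turned when single cows were left out, and that of NR3C1 also after centring of the arrays.

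Among enzymes that modify milk proteins or make their partners, B4GALT1, which forms lactose synthase with LALBA, was 4.19-fold greater in epithelium (log2 standard error 0.44, adjusted p = 0.0209), higher in all 6 cows. GALNT1, which starts O-glycans of the kind κ-casein carries, was 3.51-fold greater (adjusted p = 0.0317), and ST3GAL4, a sialyltransferase, 4.19-fold greater in stroma (adjusted p = 0.0403). This list had 6 tested genes, and the other 3 did not pass. The B4GALT1 call was lost without cow 1, 2, 3 or 6 (adjusted p = 0.0541 to 0.0711), and also without the cow block (0.0902) or with cow as a random block (0.0631). That of GALNT1 was lost without cow 1, 2, 4, 5 or 6 (0.0598 to 0.0907), and that of ST3GAL4 without cow 1, 2, 5 or 6 (0.0886 to 0.110) and with no filter or the brightest 5000 probe sets (0.0793 in both).

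Other proteins found in milk were tested as well. Of 15 tested, 7 passed as greater in epithelium and 1 as greater in stroma, with a median stroma minus epithelium difference of -1.59. LTF (lactoferrin), an iron-binding defence protein, was 11.2-fold greater in epithelium (log2 standard error 0.39, adjusted p = 0.000969), SPP1 (osteopontin) 7.19-fold (adjusted p = 0.00861), PIGR, which carries antibodies into milk, 6.90-fold (adjusted p = 0.0111) and SAA3, a mammary serum amyloid A, 4.93-fold (adjusted p = 0.0186). JCHAIN, which joins antibody chains and is made by plasma cells, was 77.6-fold greater in stroma (adjusted p = 0.000352). The median difference of this list, -1.59, was close to the -1.60 of the 7 milk protein genes, and the epithelial SDs of its genes ran from 0.13 for B2M to 3.04 for BTN1A1. SAA3 lost its call without cow 1 (0.0657) or cow 2 (0.0594), and SPP1 without the cow block (0.0773) or with cow as a random block (0.0517).

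**Figure D5:**
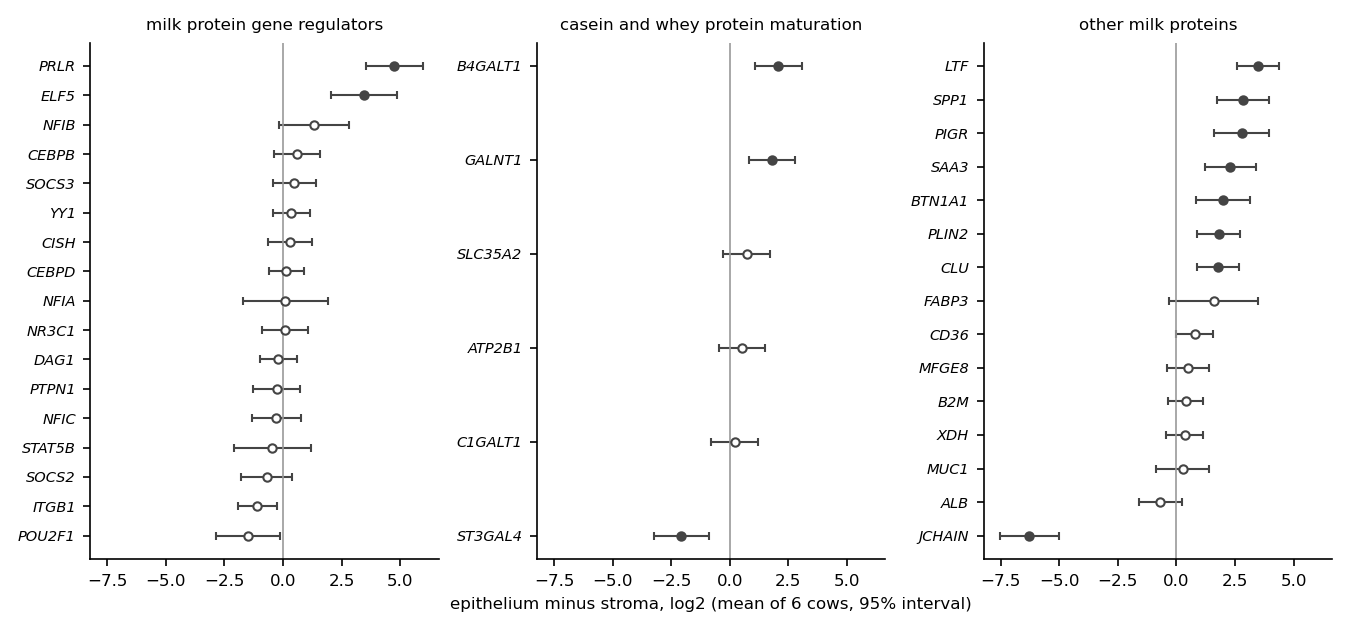
Epithelium minus stroma difference (log2, mean of 6 cows with the 95% interval) of the tested genes of 3 lists. Filled points passed an adjusted p under 0.05. PRLR and ELF5 stand to the right in the left panel, B4GALT1 and GALNT1 in the middle one, and JCHAIN stands to the left in the right panel.

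Most measured genes beside the caseins lay near background. Of 29 annotated genes within 500 kb of the casein cluster, 8 have a probe set with 1 symbol. STATH, which lies between CSN2 and CSN1S2 in the reference table, had 1.66 ± 0.23 in epithelium and 1.68 ± 0.21 in stroma, and SULT1E1, AMBN, SULT1B1 and LOC781988 had means of 1.21 to 2.36, all below the array medians. JCHAIN, UTP3 and RUFY3, further along, were tested. UTP3, a protein of ribosome assembly, was 4.21-fold greater in epithelium (adjusted p = 0.0587) and RUFY3 1.72-fold (adjusted p = 0.396), and neither passed.

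The genes whose values over the 12 arrays were most like those of the milk proteins were LOC282340, UNC13B, CCNL1, SRP68, BTN1A1, XDH, LOC510988, PPA1, SCD and G0S2, out of 5205 other genes. Their Pearson correlations with the 7 genes, averaged over the 7, ran from 0.75 for G0S2 to 0.84 for LOC282340. Arrays of the same cow and tissue are shared by all these genes, so the coefficients are a description. BTN1A1 (butyrophilin), a protein of the milk fat globule membrane, had 8.32 to 9.90 in the epithelium of cows 1, 2, 3 and 5, 3.97 in cow 4 and 2.97 in cow 6, the same split as LALBA. XDH, another protein of that membrane, varied less, from 9.09 in cow 6 to 10.82 in cow 1.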

How the data were processed

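The authors extracted and amplified RNA from 12 laser captures, hybridized it to Affymetrix Bovine GeneChips and normalized the arrays by RMA, which includes quantile normalization, together with a larger set of arrays. The deposited values are on the log2 scale. RMA forces the arrays to one distribution, so a shift of most transcripts would not be seen, and their number limits the precision. Probe sets were named from the platform annotation, in which 13318 of 24128 have exactly 1 symbol, 86 several and 10724 none. The gene IDs of 13283 of those with 1 symbol are in the reference gene table (ARS-UCD2.0), used for names and gene order only.

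Control probe sets were set aside, and the 10000 others with the highest means over the 12 arrays (lowest mean 3.57) were tested with limma 3.58.1 in R 4.3.3 (lmFit, eBayes), with tissue and a fixed cow block and Benjamini-Hochberg adjustment over all 10000. Pairing comes from the shared cow in the design and the replicate and lactation numbers of the labels. Because 4 cows share a lactation number of 1, the pairing among them rests on the replicate number of the titles alone. The methods fitted tissue without that block, which was run as an alternative. The script was tested on simulated data. Named genes were all 7 milk protein genes, up to 5 called genes of each list by size of difference, and fixed regulators and markers. BTN1A1 and XDH were named as genes most like the members, and B2M for its SD after its value was seen. The members and lists were chosen with earlier results of these data known. The cow F test and the fit without cows 5 and 6 were added after the data were seen. Alternatives were no block, a random block, other filters, centring, quantile normalization again, an intensity trend with a robust prior, the mean of a gene's probe sets and leaving out each cow. Promoter and protein sequences were not analysed here.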

Additional observations from a re-analysis of the deposited data

Results flagged for a closer look

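Single captures lay apart from the other 5 of their tissue by Dixon's test, which by chance marks about 1 in 20 groups, and these groups share cows and are not independent. In epithelium, cow 6 was the low one for CSN1S1 at 1.90 and for the CSN2 probe sets 1.S1 at 4.84, 2.A1 at 8.81 and 2.S1_x at 6.54. In stroma, cow 6 was low for CSN3 at 8.02, and cow 2 was high for the GLYCAM1 control probe set of the 5′ end at 7.02. All are log2 RMA values.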

How the results depend on the processing

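The stroma minus epithelium difference of all 7 milk protein genes kept its sign under all 16 alternatives. No block, a random block, the trend and the other filters left these differences unchanged, so they could not turn a sign. The mean of a gene's probe sets changed only CSN2. The count of 1 gene of 7 greater in epithelium became 0 without the replicate block, with a random block, with no filter and with centred arrays, 3 with an intensity trend and robust prior, 2 with the mean of a gene's probe sets, and 0 to 1 when 1 cow was left out. The count of 2 probe sets of 9 became 0 without the replicate block and with a random block, 4 with the trend, 1 with no filter, with centring and without cows 5 and 6, and 0 to 1 without 1 cow. GLYCAM1 was -2.26 without the replicate block (limma adjusted p = 0.434), with a random block (0.374) and with no filter (0.0789), -2.08 after centring (0.0558), and -2.60 to -1.85 without 1 cow. With the trend CSN3 (-1.20, adjusted p = 0.0488) and PAEP (-1.67, 0.0249) passed, and PAEP also with the mean of probe sets (-1.67, 0.0489). Regulators greater in epithelium went from 2 to 3 with the mean of a gene's probe sets. Regulators greater in stroma went from 0 to 1 with a random block and with the trend. Maturation genes greater in epithelium went from 2 to 1 without the replicate block and with a random block, to 0 without cows 5 and 6, and to 0 to 1 without 1 cow. Those greater in stroma went from 1 to 0 with no filter, with the brightest 5000 probe sets and without cows 5 and 6, and to 0 to 1 without 1 cow. Other milk proteins greater in epithelium went from 7 to 3 without the replicate block, 4 with a random block and 3 to 6 without 1 cow. Neighbours of the caseins greater in epithelium went from 0 to 1 without cows 5 and 6, and were 0 to 1 without 1 cow. The cow term called 0 milk protein probe sets with no filter and without cows 5 and 6 and 0 to 2 without 1 cow. Over all tested probe sets it called 2 with no filter, 5 among those above the array median on at least 8 arrays, 1 without cows 5 and 6 and 1 to 4 without 1 cow. The sign turned for STAT5B without cow 6 (-0.28) and for NR3C1 after centring (0.10), without cow 1 (0.24) and without cow 3 (0.05). Without 1 cow STAT5B ran from -0.28 to 1.04 and NR3C1 from -0.26 to 0.24. The causes were not tested.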
